A study of Homo sapiens with 54 samples.

Results

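HOXB13, FOXA1, GATA2 and GRHL2, 4 transcription factors of the luminal prostate epithelium, were followed across 54 RNA-seq libraries. They were chosen by name, with no measured value used, and are 4 of the 19225 genes and other transcripts in the deposited table. HOXB13, FOXA1 and GATA2 were found by the names in the table and GRHL2 by its Entrez number. The cells were 3 human prostate cancer lines: 22Rv1, from a relapsed xenograft; C4-2, a castration-resistant line derived from LNCaP; and LNCaP, an androgen-responsive line from a lymph node deposit. Each line received 6 treatments in medium with 10% serum, for 12 h: 17-beta-estradiol (E2) at 100 nM, OSU-ERb-12 (OSU), a ligand studied for estrogen receptor beta, at 100 nM, the antiandrogen enzalutamide (Enza) at 1 µM, E2 with Enza, OSU with Enza, or ethanol vehicle. That gave 18 groups of 3 libraries, called biological triplicates by the labels, which list every sample as genotype WT. The letters WT also stand for the OSU compound in the titles and in the treatment label of the OSU with Enza groups, so the identity of the agent in those groups rests on the label of OSU given alone. The labels do not say whether the serum was stripped of hormones, and the androgen content of the medium is therefore not known here.

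FOXA1 is a forkhead factor that opens chromatin at enhancers, GATA2 is a zinc finger factor that acts beside it at prostate enhancers, and HOXB13 is a homeodomain factor of the prostate lineage. GRHL2 is a grainyhead factor that sustains epithelial adhesion genes such as CDH1, which encodes E-cadherin. All but GRHL2 lie on the minus strand of GRCh38.p14: HOXB13 on chromosome 17 from 48724763 to 48728750, FOXA1 on chromosome 14 from 37589552 to 37595249, and GATA2 on chromosome 3 from 128479422 to 128493201. GRHL2 lies on the plus strand of chromosome 8 from 101492439 to 101681200. HOXB13 and FOXA1 have 2 exons each in the reference transcript, against 6 in GATA2 and 16 in GRHL2. Values are gene totals and do not separate exons or isoforms.

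The libraries held 32819568 to 52417050 reads in genes. Levels are in counts per 1000000 reads (CPM), on which scale a single read came to between 0.0204 and 0.0323. The members had between 2904 and 26604 reads in every library. In every line, 8 of 8 luminal markers, KRT8, KRT18, CDH1 and KLK3 among them, had a median of at least 1 CPM. Of 3 basal markers in the table, ITGB4 reached 1 CPM and KRT14 and KRT6A did not. Of 5 neuroendocrine markers, ENO2 and SYP reached 1 CPM and CHGA, SOX2 and FOXA2 did not; their summed level had a median of 165 CPM in 22Rv1, 10 CPM in C4-2 and 13.9 CPM in LNCaP. Of 10 mesenchyme or fibroblast markers, led by FN1 in each line, the summed median was 113 CPM in 22Rv1, 679 CPM in C4-2 and 490 CPM in LNCaP. ZEB1 and COL3A1 were under 1 CPM in every line. Also under it were SNAI1, SNAI2 and PDGFRB in 22Rv1, SNAI2, TWIST1 and CDH2 in C4-2, and CDH2 and PDGFRB in LNCaP. The part of these genes in the differences between lines was not tested. C4-2 vehicle library 1 is titled as C4-2 but tagged with the 22Rv1 cell line. Over 14457 genes it correlated at 0.9978 with C4-2 vehicle, 0.9537 with LNCaP vehicle and 0.8048 with 22Rv1 vehicle, and it was kept as C4-2. It and C4-2 E2 library 3, 22Rv1 vehicle library 3 and 22Rv1 OSU+Enza library 2 stood apart from their groups in earlier work on these data, and results are also given without them. Below, a level in CPM is followed by ± its SD over 3 libraries, and a log2 fold change by ± its SE. Differences were tested with limma on log2(CPM + 0.5) and called at a Benjamini-Hochberg adjusted p under 0.05 over all genes tested. Some groups had no overlap of libraries although their difference was not called. The share of all genes without overlap is not given. Because the RNA is bulk, fewer cells expressing a gene and less RNA per cell cannot be told apart.

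In vehicle, HOXB13, GATA2 and GRHL2 were lower in 22Rv1 than in the other lines, while FOXA1 differed least. HOXB13 stood at 220, 215 and 220 CPM in 22Rv1, at 470, 449 and 434 CPM in C4-2, and at 438, 468 and 481 CPM in LNCaP. The 22Rv1 libraries lay below all others, while C4-2 and LNCaP overlapped. The log2 difference of 22Rv1 was -1.04 ± 0.05 from C4-2 (adjusted p = 1.84e-24) and -1.08 ± 0.05 from LNCaP (adjusted p = 5.40e-25). C4-2 minus LNCaP was -0.04 (95% interval -0.14 to 0.07) and was not called, though scaling to total reads gave -0.16 and cyclic loess -0.23, both called.

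GATA2 and GRHL2 shared another order, with C4-2 highest, LNCaP between and 22Rv1 lowest. GATA2 stood at 96.4, 103 and 96.9 CPM in 22Rv1, at 349, 342 and 346 CPM in C4-2 and at 227, 227 and 225 CPM in LNCaP. GRHL2 stood at 108, 107 and 107 CPM in 22Rv1, at 303, 302 and 313 CPM in C4-2 and at 181, 169 and 171 CPM in LNCaP. No 2 lines overlapped for either gene. The log2 difference between C4-2 and LNCaP was 0.61 ± 0.04 for GATA2 (adjusted p = 4.46e-18) and 0.82 ± 0.04 for GRHL2 (adjusted p = 1.05e-24). Between 22Rv1 and C4-2 it was -1.80 ± 0.04 for GATA2 and -1.51 ± 0.04 for GRHL2, and between 22Rv1 and LNCaP it was -1.19 ± 0.04 and -0.69 ± 0.04 in the same order of genes.

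FOXA1 varied least. It averaged 415 ± 2.04 CPM in 22Rv1, 389 ± 10.2 CPM in C4-2 and 432 ± 8.11 CPM in LNCaP. The difference was called between C4-2 and LNCaP (-0.15 ± 0.04, adjusted p = 0.000659) and between 22Rv1 and C4-2 (0.09 ± 0.04, adjusted p = 0.0244), but not between 22Rv1 and LNCaP (-0.06, 95% interval -0.14 to 0.02). The call between 22Rv1 and C4-2 ended without any 1 of 22Rv1 vehicle 2 or 3 or C4-2 vehicle 2 or 3 (log2 difference 0.08 to 0.11 over the 6 such fits) and with the replicate number as a block (adjusted p = 0.0954). Its size depended on the scaling, at 0.34 with total reads and 0.42 with cyclic loess, and C4-2 minus LNCaP was -0.27 and -0.36 with the same scalings, all called. Between 22Rv1 and LNCaP, cyclic loess turned the direction (0.06, adjusted p = 0.0414). The members called were 4 of 4 between 22Rv1 and C4-2, 3 of 4 between 22Rv1 and LNCaP and 3 of 4 between C4-2 and LNCaP, against 84.7%, 83.3% and 66.7% of the 16026 genes tested, so these counts are near the background. Without the libraries that stand apart, the 4 differences between 22Rv1 and C4-2 were -1.02 (HOXB13), 0.11 (FOXA1), -1.78 (GATA2) and -1.52 (GRHL2), all called.

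Per kilobase of exon, vehicle levels can be roughly compared between genes. The length used joins the exons of all annotated transcripts of a gene, expressed or not, so the values depend on the annotation. HOXB13 had 71.8 CPM per kb in 22Rv1, 148 in C4-2 and 152 in LNCaP, and FOXA1 had 94.0, 88.1 and 97.8 in the same lines. GATA2 had 20.1, 70.3 and 46.0 CPM per kb, and GRHL2 17.7, 50.6 and 28.7. HOXB13 thus exceeded FOXA1 in C4-2 and LNCaP and lay below it in 22Rv1. GATA2 and GRHL2 were below both in every line.

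**Figure D1:**
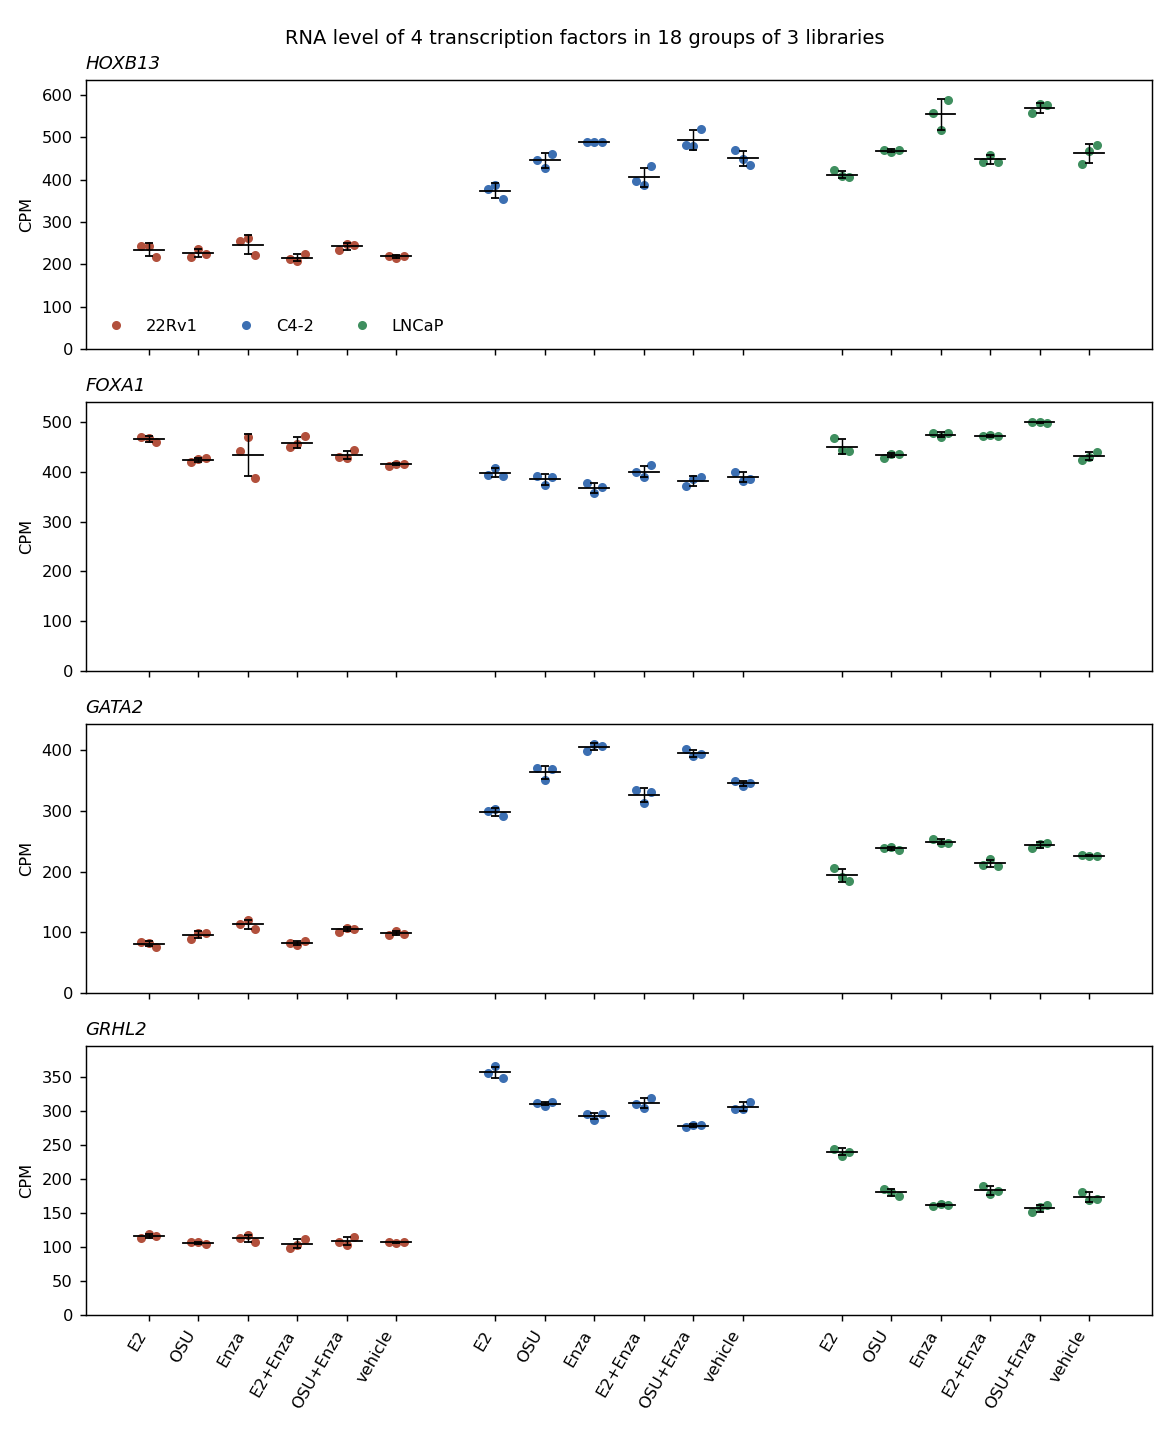
CPM of the 4 genes in 54 libraries, 1 panel per gene, with the 6 treatments of 22Rv1, C4-2 and LNCaP along the horizontal axis; dots are libraries, bars the mean and SD of 3. GATA2 in C4-2 spans 291 to 410 CPM and in 22Rv1 76.4 to 120 CPM, and FOXA1 stays between 357 and 500 CPM throughout.

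The promoters of FOXA1 and GATA2 are shown because both genes moved with treatment in at least 1 line and their start regions are in the RefSeq promoter set for GRCh38.p14, which gave windows of 250 bases before to 50 after the start; HOXB13 is named only. Both are printed 5′ to 3′ along the gene, on the minus strand, at chr14:37595200-37595499 for FOXA1 and chr3:128493152-128493451 for GATA2. Capitals mark the only matches in these windows, on either strand, to the 6 kinds of motif searched. These were the steroid receptor half-site AGAACA, the estrogen receptor half-site AGGTCA, the forkhead motifs TGTTTAC and its variant TGTTTGC, the zinc finger motif AGATAA bound by GATA2, the HOXB13 motif CCAATAAA and the grainyhead motif AACCGGTT; they do not overlap one another in the matches found.
FOXA1: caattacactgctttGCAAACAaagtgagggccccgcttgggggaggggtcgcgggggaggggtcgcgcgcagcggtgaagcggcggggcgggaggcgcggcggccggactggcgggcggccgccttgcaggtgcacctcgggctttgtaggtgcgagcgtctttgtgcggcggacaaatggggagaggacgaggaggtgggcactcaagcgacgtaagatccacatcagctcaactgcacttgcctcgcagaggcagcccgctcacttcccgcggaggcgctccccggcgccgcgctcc
GATA2: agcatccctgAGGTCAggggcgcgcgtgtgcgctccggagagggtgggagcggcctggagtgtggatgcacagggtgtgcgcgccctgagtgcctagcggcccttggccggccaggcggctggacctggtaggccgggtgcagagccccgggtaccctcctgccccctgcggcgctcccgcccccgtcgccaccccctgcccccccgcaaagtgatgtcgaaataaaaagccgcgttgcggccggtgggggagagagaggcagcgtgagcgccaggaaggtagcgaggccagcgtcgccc
The FOXA1 window holds 1 forkhead match, TGTTTGC on the opposite strand, with its first printed base 235 bases before the start; 7.16% of 34796 promoter windows of 300 bases hold a forkhead match. The GATA2 window holds 1 AGGTCA, whose first base is 240 bases before the start; 13.8% of windows hold one. The shares for the motifs not found were 14.8% for the steroid receptor half-site, 10.4% for the zinc finger motif, 0.94% for the HOXB13 motif and 0.132% for the grainyhead motif. A second GATA2 start, at chr3:128488481-128488780, had no match in its window. GC content was 69.3% in the FOXA1 window and 72.3% in the first GATA2 window. A match is a description of letters and not evidence of binding.

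E2 lowered GATA2 in all 3 lines, lowered HOXB13 in C4-2 and LNCaP, and raised GRHL2 in the same 2 lines. GRHL2 in LNCaP was the largest change among the members, at 245, 234 and 240 CPM with E2, against 181, 169 and 171 CPM in vehicle. All E2 libraries lay above all vehicle libraries, by 38.1% in mean (log2 fold change 0.47 ± 0.03, adjusted p = 1.31e-11). In C4-2 it stood at 355, 366 and 349 CPM with E2, against 303, 302 and 313 CPM in vehicle, again without overlap (0.22 ± 0.03, adjusted p = 7.38e-05). In 22Rv1 the difference was smaller and not called, at 117 ± 2.67 CPM with E2 and 107 ± 0.709 CPM in vehicle (0.12, 95% interval 0.02 to 0.22, adjusted p = 0.0683). In 1 fit of all libraries it was called (0.12, adjusted p = 0.0138). It shrank with total reads (0.05, adjusted p = 0.492) and cyclic loess (0.04, adjusted p = 0.505).

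GATA2 was the member called with E2 in all 3 lines. It stood at 84.4, 83.0 and 76.4 CPM with E2 in 22Rv1, against 96.4, 103 and 96.9 CPM in vehicle. In C4-2 it stood at 300, 304 and 291 CPM with E2, against 349, 342 and 346 CPM in vehicle. In LNCaP it stood at 206, 191 and 185 CPM with E2, against 227, 227 and 225 CPM in vehicle. In each line all 3 E2 libraries were below all 3 vehicle libraries. The log2 fold change was -0.28 ± 0.05 in 22Rv1 (adjusted p = 0.0004), -0.21 ± 0.04 in C4-2 (adjusted p = 0.000277) and -0.22 ± 0.03 in LNCaP (adjusted p = 6.08e-06). A test of the difference between lines gave adjusted p = 0.608, and the 3 calls were kept in each fit that left out 1 library. Cyclic loess gave adjusted p = 0.00369 for that difference between lines.

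GATA2-AS1, a noncoding gene that overlaps GATA2 on the opposite strand, lay between 37.3 and 58.1 CPM. Its log2 fold change with E2 was -0.22 ± 0.05 in 22Rv1 (adjusted p = 0.00244), -0.11 ± 0.05 in C4-2 (adjusted p = 0.170) and -0.13 ± 0.05 in LNCaP (adjusted p = 0.0361). Whether the reads were counted by strand is not given in the sources used here, so reads of the pair may not be separate.

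HOXB13 fell with E2 in C4-2 and LNCaP. It stood at 378, 388 and 354 CPM with E2 in C4-2, against 470, 449 and 434 CPM in vehicle (-0.27 ± 0.05, adjusted p = 0.000297). In LNCaP it stood at 422, 408 and 406 CPM with E2, against 438, 468 and 481 CPM in vehicle (-0.17 ± 0.04, adjusted p = 0.00198). No E2 library overlapped a vehicle library in either line. In 22Rv1 it stood at 244, 243 and 217 CPM with E2, against 220, 215 and 220 CPM in vehicle, and the groups overlapped (0.10, 95% interval -0.01 to 0.22, adjusted p = 0.174). The 22Rv1 value was 0.04 with total reads and 0.002 with cyclic loess, neither called. The lines differed in this effect (adjusted p = 0.00028 over the 3 lines), with 22Rv1 minus C4-2 at 0.37 ± 0.07 and 22Rv1 minus LNCaP at 0.27 ± 0.07, where 28.8% and 11.2% of all genes were called, beside 1 and 2 of 4 members. For GRHL2 the lines differed too (adjusted p = 5.34e-06), with 22Rv1 minus LNCaP at -0.35 ± 0.05 and C4-2 minus LNCaP at -0.25 ± 0.05; the last contrast called 8.41% of all genes and 1 of 4 members. C4-2 minus LNCaP was not called at total read scaling (-0.17, adjusted p = 0.0826). Over all genes, 29.1% were called in this test over the 3 lines.

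FOXA1 was called with E2 in 22Rv1, at 470, 468 and 459 CPM with E2, against 413, 416 and 416 CPM in vehicle, without overlap (0.17 ± 0.05, adjusted p = 0.0196). The call ended without any 1 of 22Rv1 vehicle 1 or 2 or E2 1 or 2 (0.16 to 0.18 over the 6 fits), at total read scaling (0.10) and with cyclic loess (0.05), which called FOXA1 in C4-2 instead (0.09, adjusted p = 0.0407). In C4-2 and LNCaP its log2 fold change was 0.03 (95% interval -0.05 to 0.11) and 0.06 (0.00 to 0.12), and the lines were not shown to differ (adjusted p = 0.109). The members called with E2 were 2 of 4 in 22Rv1, 3 of 4 in C4-2 and 3 of 4 in LNCaP, while 27.7%, 5.82% and 24.9% of all genes tested were called. Among all genes called with E2 the median absolute log2 fold change was 0.246 in 22Rv1, 0.279 in C4-2 and 0.245 in LNCaP. Without the libraries that stand apart, the C4-2 values were -0.20 (HOXB13), -0.19 (GATA2) and 0.23 (GRHL2), all called, and the 22Rv1 values -0.29 (GATA2) and 0.17 (FOXA1), both called.

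With Enza, HOXB13, GATA2 and FOXA1 rose in LNCaP and GATA2 rose in C4-2. In LNCaP, HOXB13 stood at 557, 517 and 589 CPM with Enza, against 438, 468 and 481 CPM in vehicle (0.26 ± 0.04, adjusted p = 1.25e-05). GATA2 stood at 254, 247 and 247 CPM with Enza, against 227, 227 and 225 CPM in vehicle (0.14 ± 0.03, adjusted p = 0.00267). FOXA1 stood at 477, 469 and 478 CPM with Enza, against 425, 430 and 441 CPM in vehicle (0.14 ± 0.03, adjusted p = 0.00093). Each of these had all Enza libraries above all vehicle libraries. GRHL2 was called lower, at 162 ± 1.49 CPM with Enza and 174 ± 6.71 CPM in vehicle (-0.10 ± 0.03, adjusted p = 0.0389), and that call ended without LNCaP vehicle 1 or any 1 of the 3 Enza libraries (-0.12 to -0.07 over the 6 fits).

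In C4-2 only GATA2 was called with Enza, at 399, 410 and 407 CPM, against 349, 342 and 346 CPM in vehicle (0.23 ± 0.04, adjusted p = 9.12e-05). HOXB13 in C4-2 was 489 ± 1.04 CPM with Enza and 451 ± 17.9 CPM in vehicle (0.12, 95% interval 0.02 to 0.21, adjusted p = 0.121), and was called with TMM factors (0.13), total reads (0.17) and cyclic loess (0.17). In 22Rv1 no member was called with Enza. GATA2 there was at 114, 120 and 105 CPM with Enza, against 96.4, 103 and 96.9 CPM in vehicle; all Enza libraries were higher, and the difference was 0.19 ± 0.05 (adjusted p = 0.101). It was called without 22Rv1 Enza 3 (0.25, adjusted p = 0.0144) and in 1 fit of all libraries (0.19, adjusted p = 0.00481). HOXB13 in 22Rv1 was 0.17 (95% interval 0.06 to 0.29, adjusted p = 0.176), and it too was called without 22Rv1 Enza 3 (0.25, adjusted p = 0.0112).

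The members called with Enza were 0 of 4 in 22Rv1, 1 of 4 in C4-2 and 4 of 4 in LNCaP, against 0.659%, 8.44% and 20.4% of genes tested. In 22Rv1, 2 of 4 had an unadjusted p under 0.05 by limma, and voom called 0. A test over the 3 lines called FOXA1 (adjusted p = 0.0148), for which C4-2 minus LNCaP was -0.22 ± 0.05 (4.99% of all genes called, 1 of 4 members), and GRHL2 (adjusted p = 0.0436), for which 22Rv1 minus LNCaP was 0.17 ± 0.05 (4.49%, 1 of 4 members); it called 13.3% of all genes. Between 22Rv1 and C4-2 the Enza effect differed in 0 of 4 members by limma (2 at an unadjusted p under 0.05) or voom, beside 11.3% of genes. Without the libraries that stand apart, the test over the 3 lines called neither (adjusted p = 0.056 for FOXA1 and 0.0656 for GRHL2). The FOXA1 difference of C4-2 minus LNCaP was still called (-0.20, adjusted p = 0.0468), and the GRHL2 difference of 22Rv1 minus LNCaP was not (0.17, adjusted p = 0.0605). GATA2 (adjusted p = 0.516) and HOXB13 (adjusted p = 0.319) were not shown to differ between lines in their response to Enza.

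**Figure D2:**
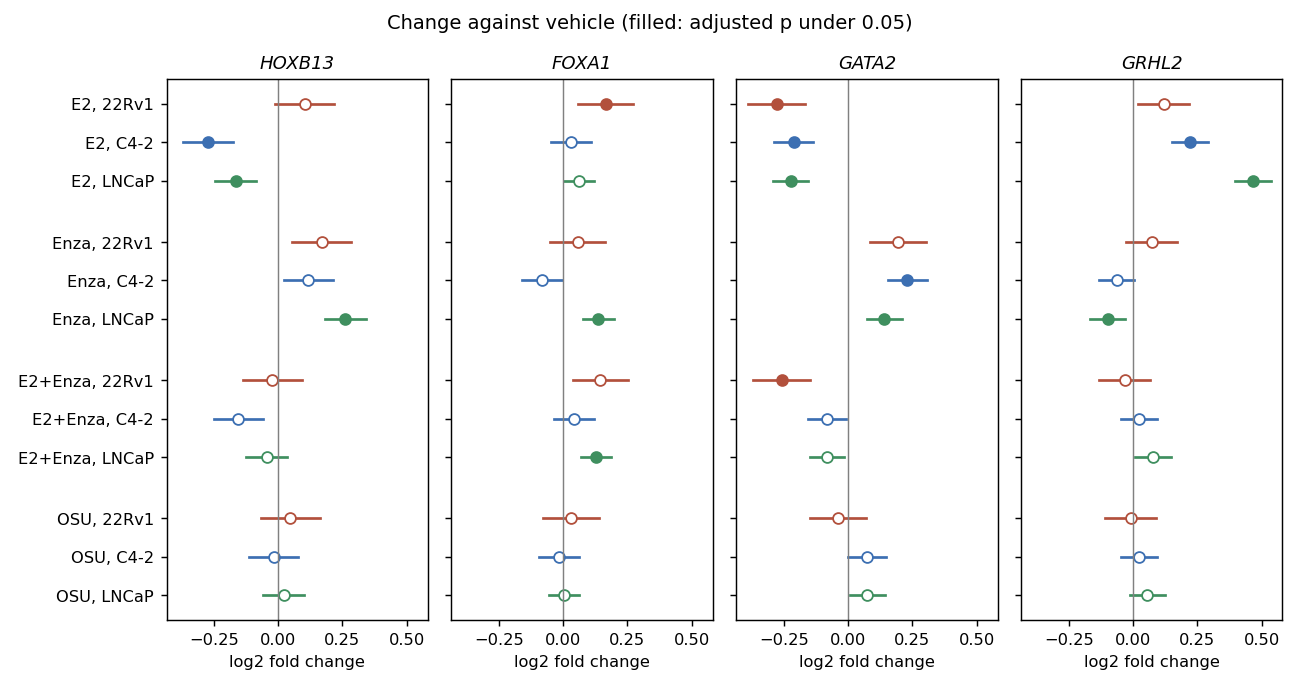
Log2 fold change against vehicle (horizontal axis) with its 95% interval for E2, Enza, E2+Enza and OSU in each line, 1 panel per gene; filled points have an adjusted p under 0.05. GATA2 is filled and left of 0 for E2 in all 3 lines, GRHL2 reaches 0.47 with E2 in LNCaP, and no OSU point is filled.

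With E2+Enza, GATA2 and HOXB13 were called lower than with Enza alone in each of the 3 lines; for HOXB13 in 22Rv1 the libraries overlapped. GATA2 stood at 82.1, 79.8 and 85.2 CPM with E2+Enza in 22Rv1, against 114, 120 and 105 CPM with Enza alone (-0.45 ± 0.05, adjusted p = 3.42e-07). The log2 difference was -0.31 ± 0.04 in C4-2 (adjusted p = 7.25e-07) and in LNCaP -0.22 ± 0.03 (adjusted p = 6.07e-06), with no overlap of libraries in any line. HOXB13 stood at 443, 459 and 442 CPM with E2+Enza in LNCaP, against 557, 517 and 589 CPM with Enza (-0.31 ± 0.04, adjusted p = 5.5e-07). In C4-2 HOXB13 fell by a log2 difference of -0.27 ± 0.05 (adjusted p = 0.000243) and in 22Rv1 by -0.19 ± 0.06 (adjusted p = 0.0277). The 22Rv1 call ended without 22Rv1 Enza 1 or 2 or E2+Enza 1 or 2 (-0.27 to -0.14 over the 6 fits).

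GRHL2 rose with E2+Enza against Enza in LNCaP, at 190, 178 and 182 CPM with E2+Enza, against 160, 163 and 163 CPM with Enza (0.18 ± 0.03, adjusted p = 0.000233). It was not called in C4-2 (0.09, adjusted p = 0.132) or 22Rv1 (-0.11, adjusted p = 0.233). FOXA1 was called higher in C4-2 (0.12 ± 0.04, adjusted p = 0.0483), a call that ended without C4-2 Enza 2 or 3 or E2+Enza 1 or 3 (0.10 to 0.14 over the 6 fits) and with the replicate number as a block (adjusted p = 0.0553). The members called were 2 of 4 in 22Rv1, 3 of 4 in C4-2 and 3 of 4 in LNCaP, against 7.94%, 7.38% and 23.1% of genes tested.

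The E2 effect on GRHL2 was smaller with Enza than without it in LNCaP, by -0.29 ± 0.05 on the log2 scale (adjusted p = 0.000168). This was the only call among the 12 interactions of E2 with Enza over the members, 1 of 4 members in LNCaP and 0 of 4 in C4-2 and in 22Rv1, while 9.05%, 1.5% and 0.424% of genes tested were called in those lines. At an unadjusted p under 0.05, limma gave 1 of 4 in C4-2 and 3 of 4 in 22Rv1, and voom called 0 in both. For GRHL2 the interaction was -0.13 ± 0.05 in C4-2 (adjusted p = 0.173) and -0.22 ± 0.07 in 22Rv1 (adjusted p = 0.161). For GATA2 in LNCaP the interaction was 0.00 (95% interval -0.10 to 0.10). For HOXB13 in 22Rv1 it was -0.30 ± 0.08 (adjusted p = 0.0999).

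**Figure D3:**
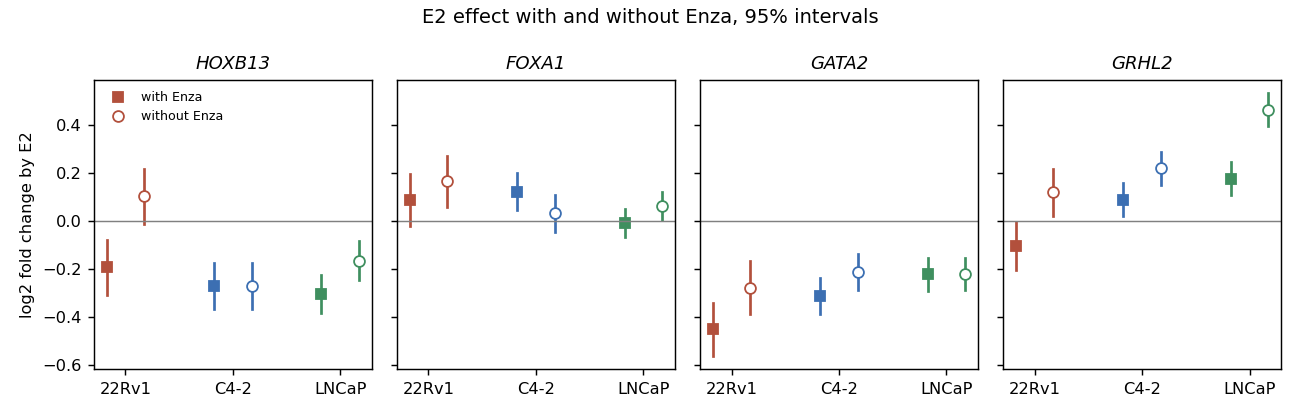
Log2 fold change by E2 (vertical axis, 95% intervals) with Enza (squares, E2+Enza minus Enza) and without it (open circles, E2 minus vehicle), by line, 1 panel per gene. GRHL2 in LNCaP stands at 0.18 with Enza and 0.47 without it; GATA2 in LNCaP stands at -0.22 in both.

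Added to E2, Enza lowered GRHL2 in C4-2 and LNCaP. The level was 311 ± 7.58 CPM with E2+Enza and 357 ± 8.7 CPM with E2 in C4-2 (-0.20 ± 0.03, adjusted p = 0.000534), and 183 ± 5.96 CPM with E2+Enza and 240 ± 5.2 CPM with E2 in LNCaP (-0.39 ± 0.03, adjusted p = 1.81e-09). GATA2 was higher with E2+Enza than with E2 in LNCaP (0.14 ± 0.03, adjusted p = 0.00332) and C4-2 (0.13 ± 0.04, adjusted p = 0.0451), the second ending in 5 of 6 fits that left out a library, each but C4-2 E2+Enza 2 (0.11 to 0.16). HOXB13 was called in LNCaP (0.12 ± 0.04, adjusted p = 0.0375), and that call ended in 5 of 6 such fits, each but LNCaP E2 1 (0.10 to 0.14). The members called were 0 of 4 in 22Rv1 by limma (2 at an unadjusted p under 0.05) or voom, 2 of 4 in C4-2 and 3 of 4 in LNCaP, against 1.2%, 3.46% and 13.5% of genes tested. Added to OSU, Enza called 0 of 4 in 22Rv1 (1 at an unadjusted p under 0.05, 0 by voom), 2 of 4 in C4-2 (GATA2 0.12 ± 0.04 and GRHL2 -0.16 ± 0.03) and 3 of 4 in LNCaP (HOXB13 0.28 ± 0.04, FOXA1 0.21 ± 0.03 and GRHL2 -0.20 ± 0.03), against 0.942%, 7.32% and 30.8% of genes tested. The C4-2 call of GATA2 ended in all 6 fits that left out 1 library (0.09 to 0.13).

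Against vehicle, E2+Enza called 1 member in 22Rv1 and 1 in LNCaP. GATA2 was called lower in 22Rv1 (-0.26 ± 0.05, adjusted p = 0.00171) and FOXA1 higher in LNCaP (0.13 ± 0.03, adjusted p = 0.00466), and no member was called in C4-2 by limma (2 at an unadjusted p under 0.05) or by voom. The call of FOXA1 ended at total read scaling (0.11, adjusted p = 0.0574). The shares of genes called were 13.8% in 22Rv1, 0.0784% in C4-2 and 7.42% in LNCaP, beside 1, 0 and 1 of 4 members. OSU+Enza against vehicle called 4 of 4 members in LNCaP (HOXB13 0.30, FOXA1 0.21, GATA2 0.11 and GRHL2 -0.14), where 29.7% of genes were called. The GATA2 call there ended without LNCaP OSU+Enza 3 (0.10 to 0.12 over the 6 fits) and in 1 fit of all libraries (adjusted p = 0.0527). In C4-2 it called GATA2 (0.19 ± 0.04) and GRHL2 (-0.14 ± 0.03), 2 of 4 beside 7.39% of genes; the GRHL2 call ended without C4-2 vehicle 3 or OSU+Enza 1 (-0.15 to -0.12 over the 6 fits). In 22Rv1 it called none by limma (1 at an unadjusted p under 0.05) or voom, beside 1.99%. Since the comparisons with vehicle in 1 line share its 3 vehicle libraries, they are not independent of each other.

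No member was called with OSU. Given alone it was within -0.04 and 0.08 of vehicle on the log2 scale for every member and line. All OSU libraries nonetheless lay above all vehicle libraries for GATA2 in C4-2 and LNCaP and for FOXA1 in 22Rv1. Among 24 tests of OSU, alone against vehicle or with Enza against Enza, none was called by limma or voom and 3 had an unadjusted p under 0.05. The largest absolute log2 fold change was 0.106, and the 95% intervals together spanned -0.216 to 0.163. Of all genes tested, OSU against vehicle called 0% in 22Rv1, 0% in C4-2 and 0.014% in LNCaP, and OSU+Enza against Enza called 0.101%, 0% and 0.0982%. Averaged over the 3 lines, OSU minus vehicle was 0.02 for HOXB13, 0.01 for FOXA1, 0.04 for GATA2 and 0.02 for GRHL2, with the widest interval from -0.04 to 0.08. The mean of OSU+Enza minus Enza called 0 members by limma (3 at an unadjusted p under 0.05, 0 by voom), beside 0.443% of genes.

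E2 and OSU were given at the same dose and time and differed directly in 3 members. GATA2 was lower with E2 than with OSU in 22Rv1, at 84.4, 83.0 and 76.4 CPM with E2, against 89.5, 99.7 and 98.9 CPM with OSU (-0.24 ± 0.05, adjusted p = 0.0022). It was also lower in C4-2 (-0.29 ± 0.04, adjusted p = 4.51e-06) and LNCaP (-0.30 ± 0.03, adjusted p = 4.21e-08), without overlap in any line. GRHL2 was higher with E2 in LNCaP, at 245, 234 and 240 CPM with E2, against 185, 181 and 175 CPM with OSU (0.41 ± 0.03, adjusted p = 1.73e-10), and in C4-2 (0.20 ± 0.03, adjusted p = 0.00028). HOXB13 was lower with E2 in C4-2 (-0.25 ± 0.05, adjusted p = 0.000634) and LNCaP (-0.19 ± 0.04, adjusted p = 0.000577).

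In 22Rv1 the ligands were not shown to differ for HOXB13 (0.05, 95% interval -0.06 to 0.17), FOXA1 (0.14, 0.03 to 0.24, adjusted p = 0.061) or GRHL2 (0.13, 0.03 to 0.23, adjusted p = 0.0576). In all 24 comparisons of the ligands over the members, with Enza or without it, 15 were called, 4 with E2 higher and 11 with E2 lower. Without Enza the members called were 1 of 4 in 22Rv1, 3 of 4 in C4-2 and 3 of 4 in LNCaP, against 22%, 5.95% and 24.6% of genes tested. With Enza they were 1 of 4, 3 of 4 and 4 of 4, against 8.83%, 6.49% and 24.1%. FOXA1 was among them only in LNCaP with Enza (-0.08 ± 0.03, adjusted p = 0.0367), a call that ended in all 6 fits that left out 1 library (-0.08 in each).

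**Figure D4:**
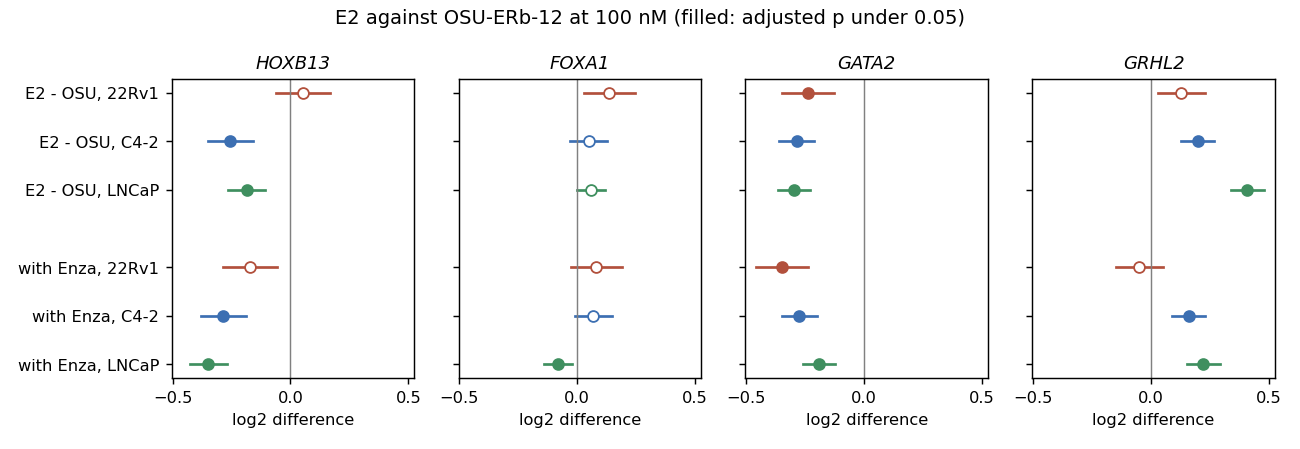
Log2 difference E2 minus OSU (horizontal axis) with its 95% interval, without Enza (upper rows) and with Enza in both arms (lower rows), by line, 1 panel per gene; filled points have an adjusted p under 0.05. GATA2 is filled and left of 0 in all 6 rows, from -0.19 to -0.35.

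Relatives of the members were mostly weak, with exceptions. GATA3, a paralog of GATA2 known from breast luminal cells, stood at 142 ± 5.47 CPM in 22Rv1 vehicle, above GATA2 in that line before length is considered, at 0.25 ± 0.206 CPM in C4-2 and at 0 reads in all 3 LNCaP vehicle libraries (0 reads allow up to 0.0764 CPM in the shallowest of them, counting error only). With E2 in 22Rv1, GATA3 fell with GATA2 (-0.23 ± 0.05, adjusted p = 0.000794). The forkhead paralogs FOXA2 and FOXA3 stayed at or below 0.24 and 0.417 CPM in every library. PRAC1, the neighbour of HOXB13 on the chromosome, differed from it in its pattern over lines, with 13.4 ± 0.357 CPM in 22Rv1, 12.8 ± 0.69 CPM in C4-2 and 97.5 ± 11.1 CPM in LNCaP. Like HOXB13, PRAC1 was called higher with Enza in LNCaP (0.20 ± 0.06, adjusted p = 0.0117). With E2+Enza against Enza it was called lower in LNCaP (-0.26 ± 0.06) and 22Rv1 (-0.30 ± 0.08). It was not called with Enza in C4-2 or 22Rv1, nor with E2 in any line. PRAC2, a further cluster neighbour, was not called with E2, with Enza or with E2+Enza against Enza in any line.

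HOXC13 and HOXA13, counterparts of HOXB13 in other HOX clusters, fell with E2 and rose with Enza in C4-2. Another counterpart, HOXD13 (4.89 ± 0.286 CPM in C4-2 vehicle), was not called there with E2 or with Enza. HOXC13 was at 8.24 ± 0.354 CPM with E2 and 11.7 ± 0.38 CPM in vehicle (-0.48 ± 0.07, adjusted p = 3.4e-05), and at 19.6 ± 0.511 CPM with Enza (0.72 ± 0.07). HOXA13 changed by -0.54 ± 0.10 with E2 and 0.66 ± 0.10 with Enza in C4-2, and by -0.81 ± 0.10 and 0.49 ± 0.10 in 22Rv1, where HOXB13 itself was not called. GRHL1, a paralog of GRHL2, rose with Enza in LNCaP (0.48 ± 0.07, adjusted p = 1.11e-05), where GRHL2 was called lower. Of the paralogs, cluster neighbours and overlapping genes tested, E2 called 1 higher and 6 lower of 16 in 22Rv1, 0 and 2 of 12 in C4-2, and 0 and 3 of 11 in LNCaP. Over all genes tested it called 27.7%, 5.82% and 24.9%, so the LNCaP count is near the background. The median log2 fold changes of the list were -0.127, -0.114 and -0.158, beside 0.0334, -0.0289 and -0.00558 over all genes tested. The list holds members of several families and includes GATA2-AS1.

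Androgen response genes were measured in the same libraries. FKBP5, a co-chaperone of steroid receptors, rose with E2 by 2.22 ± 0.05 in 22Rv1, 1.42 ± 0.05 in C4-2 and 2.56 ± 0.06 in LNCaP. The log2 fold change of TMPRSS2, a membrane protease, with Enza was -0.04 ± 0.08 (adjusted p = 0.86) in 22Rv1, -1.47 ± 0.05 in C4-2 and -1.64 ± 0.03 in LNCaP. In 22Rv1, Enza lowered KLK3, which encodes prostate-specific antigen (-0.62 ± 0.11, adjusted p = 0.00205), and FKBP5 (-0.28 ± 0.05, adjusted p = 0.000793). KLK3 with Enza was -0.52 ± 0.05 in C4-2 and -1.17 ± 0.04 in LNCaP, and with E2 it was 1.01 ± 0.11 in 22Rv1, 0.27 ± 0.05 in C4-2 and 0.50 ± 0.04 in LNCaP, all called. Of a list of 18 androgen response genes, E2 called 14 higher and 1 lower of 16 tested in 22Rv1, 13 and 1 of 17 in C4-2, and 16 and 1 of 18 in LNCaP. Enza called 0 higher and 5 lower in 22Rv1, 1 and 13 in C4-2 and 1 and 14 in LNCaP. The median log2 fold change with Enza was -0.114 in 22Rv1, against -0.516 in C4-2 and -0.606 in LNCaP; no test of that difference was made. The shares of all genes called were 27.7%, 5.82% and 24.9% with E2 and 0.659%, 8.44% and 20.4% with Enza, in the same order of lines. The part of the androgen response genes in the members' changes was not tested.

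TLE3, a corepressor, was called in the same directions as HOXB13 in LNCaP, with log2 fold changes of -0.43 ± 0.04 with E2 and 0.34 ± 0.04 with Enza.

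Luminal epithelial genes split in both directions. With E2, 8 rose and 2 fell of 18 tested in 22Rv1, 4 and 2 of 21 in C4-2, and 7 and 5 of 21 in LNCaP. The keratin KRT8 (0.85 ± 0.04) and the ETS factor SPDEF (0.80 ± 0.03) rose in LNCaP. With Enza the counts were 1 and 0, 1 and 4, and 6 and 4. The shares of all genes called were 27.7%, 5.82% and 24.9% with E2 and 0.659%, 8.44% and 20.4% with Enza, in the same order of lines. The ETS factor ELF3 rose with Enza by 0.51 ± 0.06 in LNCaP and 0.63 ± 0.06 in C4-2. CDH1, a target of GRHL2 in epithelia, moved opposite to GRHL2 with E2, by -0.10 ± 0.03 in LNCaP (adjusted p = 0.00744) and -0.14 ± 0.04 in C4-2 (adjusted p = 0.0358).

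Over the 15 responses of a group mean against its vehicle mean (3 lines by 5 treatments), HOXB13 correlated with GATA2 at r = 0.656 and with GRHL2 at r = -0.689, and GATA2 with GRHL2 at r = -0.611. FOXA1 correlated weakly with each (0.283 with HOXB13, -0.408 with GATA2 and -0.0355 with GRHL2). These points share vehicle libraries within a line and the values are descriptions. Among 8856 genes with a mean of at least 10 CPM in each line, those most like HOXB13 were C1orf115 (r = 0.953), RCAN3 (0.948) and TSPAN3 (0.940). For FOXA1 they were COBL (0.928), CAST (0.924) and DAAM1 (0.922). For GATA2 they were ST3GAL1 (0.950), CDH1 (0.941) and GALNT3 (0.929), and for GRHL2 LDLRAD3 (0.960), PAK1IP1 (0.953) and SORD (0.946).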

How the data were processed

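RNA was sequenced from total RNA in 54 libraries with a stranded total RNA kit, per the labels' protocols. Tools listed in the submitters' processing notes are edgeR, featureCounts, FastQC and Trimmomatic, with the hg38 build, and Rsubread appears in the series' design text. Their versions and the strand setting are not given here. The deposited values are a score, although the labels call them CPM: log2 of CPM after adding 0.5 reads, rescaled within each library to a column total of 1000000, with 24.3 to 30.1% of values negative. This was read from the values, and whole reads were recovered for 100% of them (tolerance 0.01). CPM was then computed with the authors' effective library sizes. Of 19225 rows, 18917 matched RefSeq.

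Tests were made in R 4.3.3 by limma 3.58.1, trend option on, from log2(CPM + 0.5), which understates the change of low genes. Genes reaching 1 CPM in 3 or more libraries of a fit were kept. Each line was fitted alone (12 residual degrees of freedom); differences between lines came from a joint fit of the 54 libraries (36 residual degrees of freedom). P-values are two-sided and adjusted by Benjamini-Hochberg within a comparison. The fit was tested on simulated data. A planned edgeR count test was left out since the deposited values are not counts; voom on the recovered reads was an alternative. Others were pseudocounts of 0.1 and 2, no filter, TMM, total reads, cyclic loess, a replicate block, 1 fit of all libraries, and leaving out libraries. Named genes were the 4 members, for each the 3 genes with the most similar responses, KLK3, TMPRSS2 and FKBP5, and up to 4 genes of smallest p from each list. PRAC1, PRAC2, HOXA13 and CDH1 were in part chosen after their values were seen. The members and lists were chosen with earlier results of these data known. Some genes and 1 list are not reported here. P-values set a difference against the spread of libraries within groups, pooled over all groups of a fit and moderated across genes.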

Additional observations from a re-analysis of the deposited data

Results flagged for a closer look

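The responses of 3 members differed between lines by a test of the difference itself, in the fit of all libraries. The E2 effect on HOXB13 was higher in 22Rv1 than in C4-2 by 0.3748 on the log2 scale (adjusted p = 0.00028 over the 3 lines): it was 0.10 in 22Rv1 and -0.27 in C4-2. The E2 effect on GRHL2 was lower in 22Rv1 than in LNCaP, by -0.3463 (adjusted p = 5.34e-06 over the 3 lines): it was 0.12 in 22Rv1 and 0.47 in LNCaP. The Enza effect on FOXA1 was lower in C4-2 than in LNCaP, by -0.2184 (adjusted p = 0.0148 over the 3 lines): it was -0.08 in C4-2 and 0.14 in LNCaP. The Enza effect on GRHL2 was higher in 22Rv1 than in LNCaP, by 0.1714 (adjusted p = 0.0436 over the 3 lines): it was 0.07 in 22Rv1 and -0.10 in LNCaP. Both E2 differences held in all leave-one-out fits, and the Enza difference in GRHL2 held in 2 of 12.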

How the results depend on the processing

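Of 208 tests of the members, 75 were called, and 60 of those stayed called in every fit that left out 1 library. A pseudocount of 2 changed no call of the members, a pseudocount of 0.1 ended 1, no filter ended 6, TMM gained 5, voom ended 1 and gained 3, total reads ended 8 and gained 9, and cyclic loess ended 3, gained 14 and turned 1 direction (FOXA1 in vehicle, 22Rv1 minus LNCaP, 0.0624). The block for the replicate number ended 5 calls. The causes were not tested. Total read scaling shifted the all-gene median to -0.102 for C4-2 minus LNCaP and 0.218 for 22Rv1 minus C4-2 in vehicle.

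The numbers of members called that moved by more than 1.5 times are given here; smaller moves, of 1 member among 3 or 4 or from 2 to 3, are not all listed. With 1 fit of all libraries, the counts were 1 for E2+Enza minus E2 and for OSU+Enza minus OSU in C4-2 and, in 22Rv1, 1 for Enza minus vehicle and for E2+Enza minus E2, 2 for E2+Enza minus vehicle, for E2+Enza minus OSU+Enza and for the interaction of E2 with Enza, and 3 for E2 minus OSU. With TMM, 2 were called for Enza minus vehicle in C4-2 and for E2+Enza minus OSU+Enza in 22Rv1. With cyclic loess and with total reads, these last 2 comparisons also gave 2, the interaction in C4-2 gave 1 and E2 minus vehicle in 22Rv1 gave 1. Cyclic loess gave 3 for the difference in the E2 effect between 22Rv1 and C4-2, and total reads gave 2. For the Enza effect, the difference between 22Rv1 and LNCaP gave 0 with a pseudocount of 0.1, no filter, total reads, cyclic loess, voom, the replicate block and when the 4 libraries that stand apart were left out. The test of the Enza effect over 3 lines gave 1 with cyclic loess, no filter and the replicate block, and 0 with total reads and when those 4 libraries were left out. Total reads gave 0 for E2+Enza minus vehicle in LNCaP and for C4-2 minus LNCaP in the E2 and Enza effects. No filter gave 1 for E2+Enza minus Enza in 22Rv1, and the replicate block and leaving out the 4 libraries gave 1 for E2+Enza minus E2 in C4-2. Voom gave 2 for E2+Enza minus vehicle and E2 minus OSU in 22Rv1 and the E2 effect of 22Rv1 minus C4-2. Over the fits that left out 1 library, the counts ran from 0 to 2 for Enza minus vehicle and the interaction in 22Rv1, the test over lines of Enza and its 22Rv1 minus C4-2 difference, from 1 to 3 for E2 minus vehicle in 22Rv1, from 0 to 1 for E2+Enza minus E2 in 22Rv1 and the other Enza differences, and from 1 to 2 for the remaining ones that moved by more than 1.5 times. Below that, E2+Enza minus E2 in LNCaP ran from 2 to 4, and Enza minus vehicle and OSU+Enza minus vehicle in LNCaP from 3 to 4. In 1 fit of all libraries, E2 minus vehicle in 22Rv1 gave 3, and in LNCaP Enza minus vehicle, OSU+Enza minus vehicle and E2+Enza minus OSU+Enza gave 3 and E2+Enza minus E2 gave 2.

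Whether the replicate numbers pair the libraries was not settled. In LNCaP, C4-2 and 22Rv1, 11, 12 and 12 of 45 same-numbered pairs correlated over 0.1, with no such count for other pairs. The median correlation of same-numbered pairs was 0.00263, 0.00591 and 0.0162. For pairs of other numbers it was -0.000572, 0.000965 and -0.00464. Depth limits no member, since each had at least 2904 reads in every library. An edgeR test was not run.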
